A study of Mus musculus with 6 samples.

Results

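The 10 genes described here encode the main heat shock proteins of the cytosol and of the mitochondrial matrix: Hspa8, Hspa1a, Hspa1b, Hsph1, Dnajb1, Hsp90aa1, Hsp90ab1, Hspb1, Hspd1 and Hspe1. They were matched by name, and each symbol matched 1 row among the 23631 genes of the deposited table. The RNA came from livers of male C57BL/6J mice, an inbred laboratory strain, in 6 sequencing libraries. The labels put 3 libraries in a group fasted for 48 h and 3 in a group called re-fed, and both groups share strain, sex and tissue. One protocol label speaks of normal feeding where the others say re-fed, so whether the refed mice had been fasted first is not settled, and no age, hour of collection or body temperature is given in the sources used here. The labels number the libraries without saying that each is a separate animal, so the p-values measure the spread between these libraries, which may be technical.

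Heat shock proteins are chaperones: they bind unfolded stretches of other proteins and let them fold, refold or be passed on for degradation. Hsp70 works in an ATP-driven cycle in which J-domain proteins deliver clients and nucleotide exchange factors release them, and Hsp90 then matures a narrower set of clients such as kinases and steroid receptors. Heat shock factor 1 (HSF1) switches on the inducible members by binding inverted repeats of the bases GAA, called heat shock elements, while the constitutive members are made at all times. In mitochondria a barrel of Hspd1 (Hsp60) closed by a lid of Hspe1 (Hsp10) folds imported proteins.

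The 4 sequences that follow are the 250 bases before the transcription start of inducible members that fell with fasting (Hspa1b, Hspa1a and Hsph1) and of the mitochondrial pair (Hspe1). They are shown because the genes differ in how they moved, and because these windows carry the letters of a heat shock element. They come from RefSeq, build GRCm38.p6, and run 5′ to 3′ on the strand of the gene. Capitals mark every match to 2 or 3 alternating units (GAANNTTC or TTCNNGAA, and the overlapping longer forms GAANNTTCNNGAA or TTCNNGAANNTTC, which cover both strands).
Hspa1b, chr17:34959239-34959488, minus strand: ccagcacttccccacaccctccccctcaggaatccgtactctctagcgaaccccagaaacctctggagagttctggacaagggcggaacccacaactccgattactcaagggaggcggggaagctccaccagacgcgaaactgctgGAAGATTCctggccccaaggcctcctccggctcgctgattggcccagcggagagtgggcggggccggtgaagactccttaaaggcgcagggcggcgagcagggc
Hspa1a, chr17:34972157-34972406, minus strand: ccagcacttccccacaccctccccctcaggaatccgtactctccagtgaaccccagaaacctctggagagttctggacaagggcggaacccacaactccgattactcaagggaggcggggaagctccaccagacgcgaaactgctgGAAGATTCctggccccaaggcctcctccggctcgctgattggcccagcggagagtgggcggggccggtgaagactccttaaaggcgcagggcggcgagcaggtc
Hsph1, chr5:149636337-149636586, minus strand: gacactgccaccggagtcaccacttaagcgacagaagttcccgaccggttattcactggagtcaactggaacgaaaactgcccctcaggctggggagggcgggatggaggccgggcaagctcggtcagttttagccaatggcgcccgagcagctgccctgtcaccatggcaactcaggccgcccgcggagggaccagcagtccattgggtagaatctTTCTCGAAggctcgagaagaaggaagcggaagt
Hspe1, chr1:55087898-55088147, plus strand: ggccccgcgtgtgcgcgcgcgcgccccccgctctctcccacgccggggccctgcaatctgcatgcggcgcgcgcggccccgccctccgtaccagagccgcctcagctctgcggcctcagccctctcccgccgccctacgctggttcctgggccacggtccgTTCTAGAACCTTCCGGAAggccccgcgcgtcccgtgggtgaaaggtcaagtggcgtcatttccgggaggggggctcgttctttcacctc

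The upstream stretches of Hspa1a and Hspa1b had the same base at 247 of 250 positions. Of the 10 genes, 7 matched at least 1 promoter window in the RefSeq table. Within the whole windows, which reach 50 bases past the start, Hsph1, Hspd1 and Hspe1 held a 3-unit match in at least 1 of their windows, against 0.662% of the 27025 genes of that table (0.603% of its 32851 windows). A match of at least 2 units was held by 6 of the 7 (all but Dnajb1), against 17.0% of genes (15.1% of windows). The 3-unit match of Hsph1, TTCTGGAAAGTTC at chr5:149636288-149636300, lay past the start and so is not in the stretch above. The longer match in Hspe1 and that in Hspd1 are the same 18 bases read from opposite strands, since the pair lie head to head. A match of letters is a description and was not tested as a binding site.

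Levels below are CPM, read counts scaled to a common library size with TMM factors (counts per 1e+06 reads), and 3 counts corresponded to between 0.0844 and 0.0946 CPM. A change is the log2 fold change of fasted over refed with its standard error (SE), tested with edgeR's quasi-likelihood test, and p-values were adjusted by Benjamini-Hochberg over all 13248 genes tested, with 0.05 as the threshold. Total counts ranged from 34170489 to 36026753 in fasted and from 29574528 to 32988426 in refed libraries. Albumin, the marker protein of hepatocytes, took the most reads in each library, and the summed level of 9 hepatocyte markers ranged from 124913 to 151489 CPM in fasted and from 98884 to 115856 CPM in refed livers. Fasted replicate 3 stood apart: chi-square per gene was 232 and 206 between it and fasted replicates 1 and 2, against 34.8 between those 2 and 26.3 to 47.5 among refed libraries. Its summed level of 6 neutrophil markers was 141 CPM, against 1.05 and 1.96 CPM in the other fasted and 0.227 to 0.536 CPM in the refed libraries. Of the 6 markers only S100a9 reached the filter, at whose cutoff it stood in 3 fasted libraries and 1 refed library. Its log2 fold change was 7.64, and 2.19 without fasted replicate 3. S100a8 had 7, 27 and 1608 reads in fasted and 4, 1 and 2 reads in refed replicates 1 to 3. Heat shock gene results that rest on fasted replicate 3 are given with and without it. Adipocyte markers summed to 4.95 CPM in refed replicate 2 and to between 0.0609 and 0.426 CPM in the other libraries.

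Of the 8 cytosolic heat shock genes 5 were lower in fasted than in refed livers, with a median log2 fold change of -1.19 over the 8 (4 of 7 and -0.96 without Hspa1a), and neither gene of the mitochondrial pair passed (median 0.32). Hspa1b was 18.8-fold lower, Hsph1 8.45-fold, Dnajb1 2.69-fold and Hsp90aa1 1.94-fold. Hspa1a also passed the test at a level near the limit of detection. The remaining 5, Hspa8, Hsp90ab1, Hspb1, Hspd1 and Hspe1, did not pass in 6 libraries. Of all tested genes, 59.4% were called, 30.2% lower and 29.2% higher (3999 and 3867 genes, or 5074 and 2873 when libraries were scaled by their totals alone, which moved the median of all genes to -0.21). Against this, 5 of the 10 were called lower and 0 higher by edgeR. Hspa1a reached the filter on low counts only through its refed libraries and so had to differ, and without it the count was 4 of 9. The median log2 fold change was -0.82 over the 10 genes, -0.68 without Hspa1a and 0.00 over all tested genes. In the authors' deposited table the same 5 genes have an adjusted p below 0.05, from 1.70e-38 for Dnajb1 to 0.0312 for Hspa1a. In bulk tissue, fewer cells of a type and less RNA per cell cannot be told apart.

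**Figure D1:**
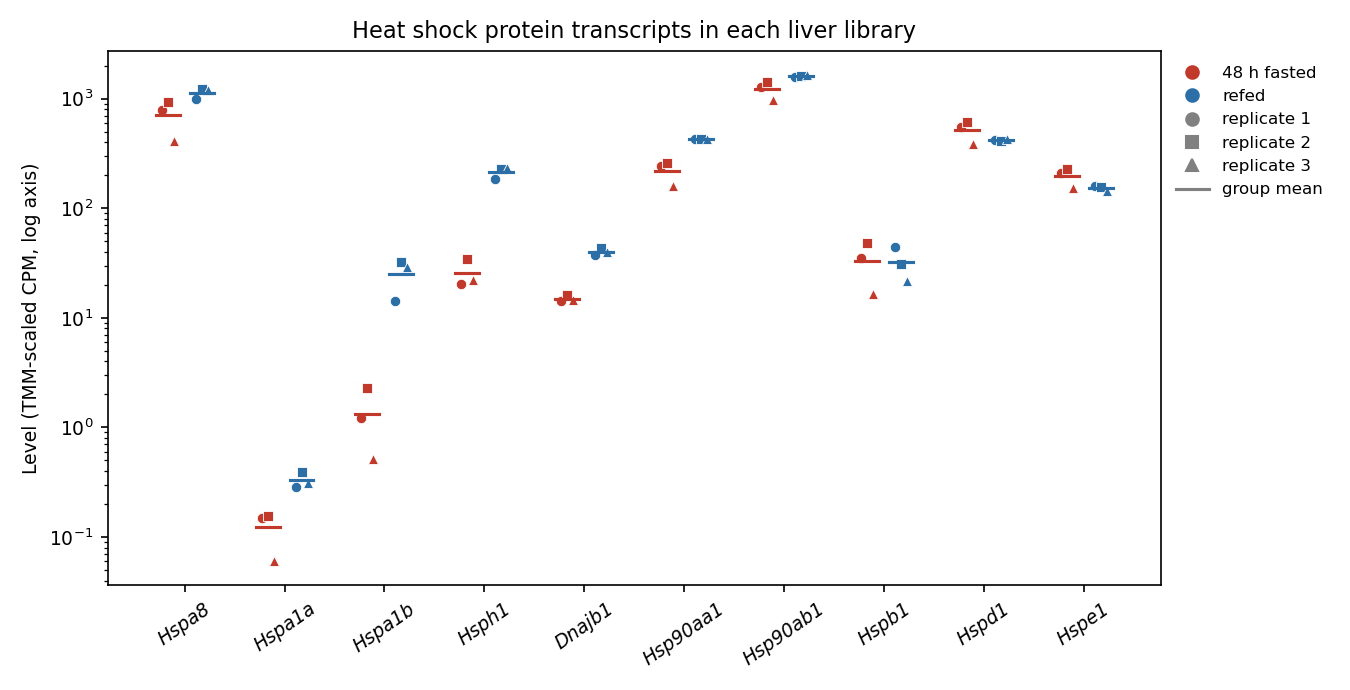
Level of each of the 10 heat shock protein transcripts (CPM after TMM scaling, logarithmic vertical axis) in 3 libraries of 48 h fasted livers (red) and 3 of refed livers (blue). Marker shape gives the replicate and the line the group mean. The fasted libraries lie below all refed ones for 7 genes and overlap them for Hspb1, Hspd1 and Hspe1.

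The groups did not overlap for 7 of the 10 genes (6 of 9 without Hspa1a), each time with the fasted libraries below, where 34.4% of all tested genes had that order, 32.8% had the opposite one and 67.2% had either. Together the 10 genes took 0.291%, 0.321% and 0.205% of all reads in fasted replicates 1 to 3, against 0.412%, 0.449% and 0.451% in refed replicates 1 to 3. Fasted replicate 3 was the lowest of the fasted libraries for 8 of the 10 genes, and for 38.9% of all tested genes. The exceptions were Hsph1 and Dnajb1. Its log2 difference from the mean of the other fasted libraries ranged from -1.58 for Hspa1b to -0.08 for Dnajb1, with a median of -0.64, against 0.01 over all tested genes. The part of the neutrophil markers of that library in these differences was not tested.

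Hspa8 (ENSMUSG00000015656, chr9:40609067-40613283 in mm9) is the constitutive cytosolic Hsp70, which folds new proteins, strips clathrin from vesicles and carries cargo to lysosomes. It was measured at 786, 938 and 412 CPM in fasted livers, against 989, 1214 and 1209 CPM in refed livers. All fasted libraries lay below all refed ones, but fasted replicate 3 was far below the other fasted libraries. The log2 fold change was -0.68 (SE 0.29, n = 3 each) and did not pass (edgeR adjusted p = 0.0722). Without fasted replicate 3 the difference was smaller but passed (-0.40, edgeR adjusted p = 0.0270), and it also passed without fasted replicate 2 (-0.92, edgeR adjusted p = 0.0354).

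Hspa1b (ENSMUSG00000090877, chr17:35093381-35096183 in mm9) and Hspa1a (ENSMUSG00000091971, chr17:35106144-35109069 in mm9) are the heat-inducible Hsp70 genes, neighbours on chromosome 17 that are nearly silent in unstressed cells. Hspa1b was measured at 1.23, 2.27 and 0.518 CPM in fasted livers, against 14.1, 32.4 and 29.0 CPM in refed livers. Every fasted library was far below every refed one, and the spread within both groups was wide. Hspa1b fell by 4.23 on the log2 scale (SE 0.52, n = 3 each; edgeR adjusted p = 0.000396). It was 28.5-fold lower without fasted replicate 2 and 14.4-fold lower without fasted replicate 3. Hspa1a had 5, 5 and 2 reads in fasted livers, against 9, 14 and 11 in refed livers, the lowest level of the 10 genes. Its log2 fold change was -1.41 (SE 0.44; edgeR adjusted p = 0.0237), and the call was lost without fasted replicate 3 (edgeR adjusted p = 0.0655) and without refed replicate 2 or 3 (edgeR adjusted p = 0.0904 and 0.0558). Of the 50-base stretches of the Hspa1a transcript, 58.8% also occur in Hspa1b. The table also lists Gm20481 over 2213 bases of the Hspa1a locus. How reads were divided among these 3 genes is therefore uncertain, and so is the low level of Hspa1a. With Hspa1a and Hspa1b counted as 1 gene, in a fit added after the values were seen, the log2 fold change was -4.13 (edgeR adjusted p = 0.000406).

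Hsph1, or Hsp110 (ENSMUSG00000029657, chr5:150416862-150438951 in mm9), is the nucleotide exchange factor that opens Hsp70 and joins it in pulling apart aggregates. Hsph1 was at 20.3, 34.4 and 22.0 CPM in fasted livers, against 185, 230.4 and 232 CPM in refed livers. The lowest refed library was well above the highest fasted one, and fasted replicate 3 lay close to replicate 1. The log2 fold change was -3.08 (SE 0.23, n = 3 each; edgeR adjusted p = 2.73e-05). None of its 50-base stretches occurs in a transcript of another gene, so its count is not shared with other genes in that sense.

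Dnajb1, or Hsp40 (ENSMUSG00000005483, chr8:86132074-86135801 in mm9), is the inducible J-domain protein that hands clients to cytosolic Hsp70. Dnajb1 was at 14.3, 16.3 and 14.4 CPM in fasted livers, against 37.6, 43.2 and 40.0 CPM in refed livers. The libraries of each group lay close together and the groups were far apart. Dnajb1 fell by 1.43 on the log2 scale (SE 0.11, n = 3 each; edgeR adjusted p = 3.02e-05), with the smallest SE of the 10 genes. Only 0.407% of its 50-base stretches occur in another gene's transcript.

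Hsp90aa1 (ENSMUSG00000021270, chr12:111928815-111940938 in mm9) encodes the stress-inducible and Hsp90ab1 (ENSMUSG00000023944, chr17:45704724-45710220 in mm9) the constitutive cytosolic Hsp90. Hsp90aa1 was at 245, 260.3 and 158 CPM in fasted livers, against 433, 427 and 427 CPM in refed livers. The refed libraries were nearly identical, and the fasted ones all lay below them, with replicate 3 lowest. Hsp90aa1 fell by 0.96 on the log2 scale (SE 0.19, n = 3 each; edgeR adjusted p = 0.00311). Hsp90ab1 was at 1282, 1434 and 972 CPM in fasted livers, against 1566, 1621 and 1646 CPM in refed livers. These groups did not overlap either, but the log2 fold change of -0.39 (SE 0.17, n = 3 each) did not pass (edgeR adjusted p = 0.084).

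**Figure D2:**
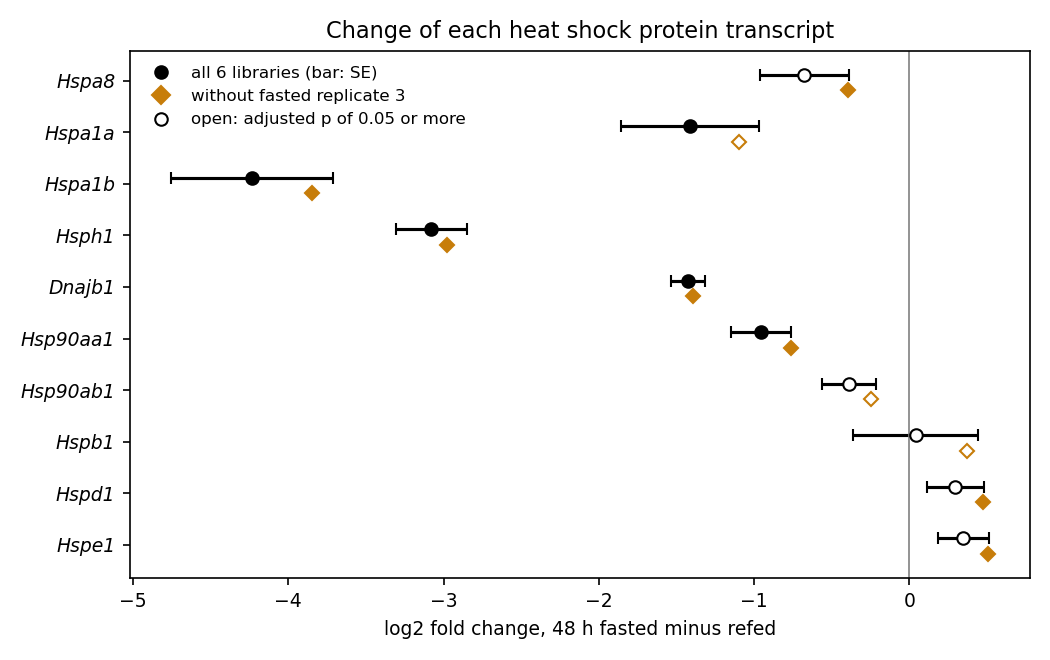
Log2 fold change of each gene, 48 h fasted minus refed, with all 6 libraries (black circles, bars show the SE) and without fasted replicate 3 (orange diamonds). Filled symbols passed an adjusted p of 0.05 in edgeR. Hspa1b, Hsph1, Dnajb1 and Hsp90aa1 passed in both fits, Hspa8, Hspd1 and Hspe1 only without that library, and Hspa1a only with it.

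Hspb1, called Hsp25 in the mouse (ENSMUSG00000004951, chr5:136363789-136365433 in mm9), is a small heat shock protein that holds unfolded clients without using ATP and protects actin filaments. Its levels were 34.98, 48.3 and 16.4 CPM in fasted livers, against 44.4, 30.9 and 21.6 CPM in refed livers. The groups overlapped fully, and libraries within a group differed by more than the group means did. The log2 fold change was 0.04 (SE 0.40, n = 3 each; edgeR adjusted p = 0.939), and its sign depended on the scaling and on the library left out. Of its 50-base stretches, 51.6% occur in the pseudogene Hsp25-ps1.

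Hspd1 (ENSMUSG00000025980, chr1:55134679-55145087 in mm9) and Hspe1 (ENSMUSG00000073676, chr1:55144976-55148151 in mm9) are the barrel and the lid of the mitochondrial chaperonin, and the deposited table gives their gene bodies an overlap of 112 bases. Hspd1 was at 548, 614 and 384 CPM in fasted livers, against 417, 411 and 430.4 CPM in refed livers. Fasted replicates 1 and 2 lay above all refed libraries and fasted replicate 3 lay below them. The log2 fold change was 0.30 (SE 0.18, n = 3 each) and did not pass (edgeR adjusted p = 0.197).

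Hspe1 was at 210.0, 228 and 153 CPM in fasted livers, against 161, 158 and 145 CPM in refed livers. Its pattern was the same, except that fasted replicate 3 fell among the refed libraries. The log2 fold change was 0.35 (SE 0.16, n = 3 each; edgeR adjusted p = 0.0965). Without fasted replicate 3 both passed as higher, Hspd1 at 0.47 (edgeR adjusted p = 0.00336) and Hspe1 at 0.50 (edgeR adjusted p = 0.00215), where 31.6% of tested genes were called higher. In that fit 5 of the 10 genes were called lower, where 32.7% of tested genes were.

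Shares within related genes do not depend on how libraries are scaled. Hsp90aa1 made up 16.0%, 15.4% and 14.0% of the reads of both cytosolic Hsp90 genes in fasted livers, against 21.7%, 20.9% and 20.6% in refed livers. The difference in means was -5.92 percentage points, and the groups did not overlap. Hspa1a and Hspa1b together made up 0.175%, 0.258% and 0.140% of the reads of the cytosolic Hsp70 genes they form with Hspa8 in fasted livers, against 1.44%, 2.63% and 2.37% in refed livers. That difference was -1.95 points. In both cases the inducible genes held a smaller share in fasted than in refed livers. A two-sided exact permutation test gave 0.10 for each, the smallest p that 3 against 3 libraries allow, and an adjusted p of 0.15 over the 3 shares tested.

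The share of lid to barrel overlapped between fasted and refed livers. Hspe1 made up 27.7%, 27.0% and 28.5% of the reads of Hspd1 and Hspe1 in fasted livers, against 27.9%, 27.7% and 25.2% in refed livers. The difference of 0.836 points was within the spread of the libraries (SD 0.731 points in fasted and 1.52 points in refed livers, n = 3 each; two-sided exact permutation p = 0.6, adjusted p = 0.6).

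**Figure D3:**
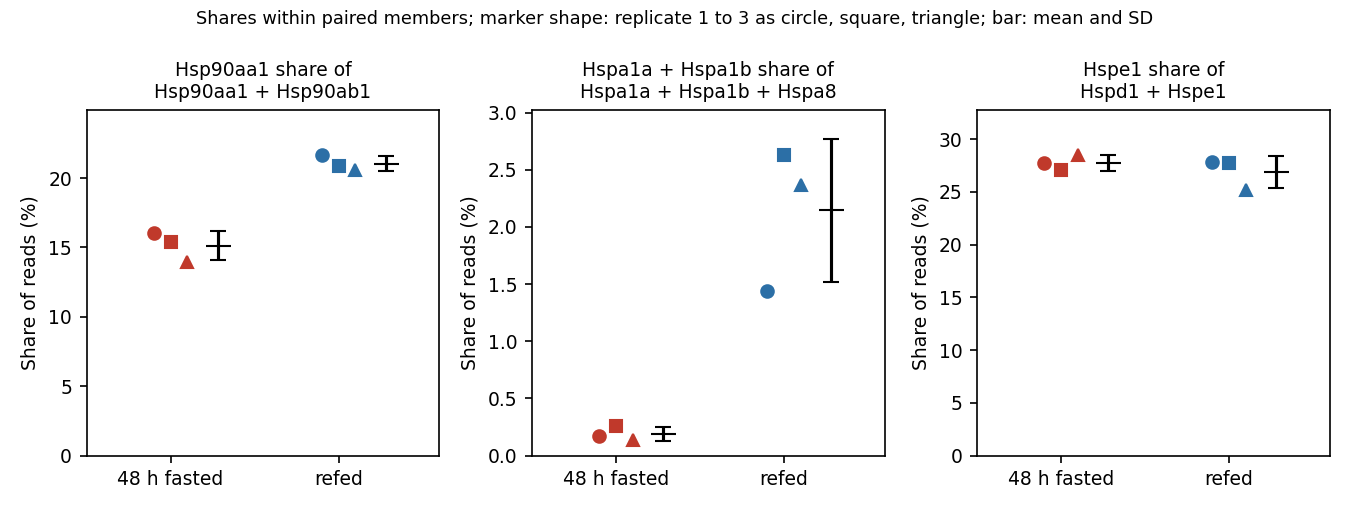
Share of reads (percent) held by the first gene or genes within each set of related heat shock genes, per library, for 48 h fasted (red) and refed (blue) livers; black bars give the mean and SD of 3 libraries. The inducible Hsp90aa1 and the inducible Hsp70 pair hold a smaller share in all fasted libraries, while the share of Hspe1 overlaps between groups.

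Levels of different genes can be compared only per length, for which the authors' deposited signal per kb of gene was used. In fasted livers Hsp90ab1 was highest at 60544 ± 11816, followed by Hspa8, Hspd1, Hsp90aa1, Hspe1, Hspb1, Hsph1, Dnajb1, Hspa1b and Hspa1a at 1.43 ± 0.625 (SD, n = 3 each). In refed livers the order ran from Hsp90ab1 at 79029 ± 1842 through Hspa8, Hsp90aa1, Hspd1, Hspe1, Hsph1, Hspb1, Dnajb1 and Hspa1b to Hspa1a at 3.84 ± 0.663 (SD, n = 3 each). The orders rest on the gene lengths behind the deposited signal, which do not follow the transcript lengths for every gene. In refed livers Hsp90aa1 and Hspd1 had similar mean levels before division by length (429 and 420 CPM). Per kb Hsp90aa1 was higher, though its longest coding transcript is the longer (3281 against 2423 bases). Whether these 2 genes change places thus depends on the lengths used. As deposited, the orders differ at 2 places. Hspd1 stood above Hsp90aa1 in fasted livers (20411 ± 4777 and 12613 ± 3193 per kb) and below it in refed livers (16555 ± 365 and 24391 ± 237 per kb; SD, n = 3 each). Hsph1 stood below Hspb1 in fasted livers (278 ± 83.9 and 1258 ± 610 per kb) and above it in refed livers (2338 ± 289 and 1218 ± 435 per kb; SD, n = 3 each). Neighbours whose libraries overlapped were Hspa8 with Hspd1 and Hsph1 with Dnajb1 in fasted livers, and no neighbours overlapped in refed livers. Per-kb levels also carry the sharing of reads with pseudogenes: 73.2% of the 50-base stretches of Hspa8, 58.5% of Hsp90aa1, 44.8% of Hspd1, 36.1% of Hspe1 and 4.49% of Hsp90ab1 occur in transcripts of other genes.

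Among the genes whose profile over the 6 libraries was nearest to that of Hspa8 were Nr1h4, Acat1, Cpox and Gm11789, with a root mean square difference of centred log2 CPM from 0.0972 to 0.111, out of 8695 genes of at least 5 CPM. Hsp90aa1 was the 69th nearest (0.209) and Hsp90ab1 the 204th (0.271), while Hspa1b was at 1.82. Nearest to Hspd1 were Orc3, Psma5, Grhpr, Athl1 and BC004004 (0.0399 to 0.0647). Hspe1 was the 16th nearest to Hspd1 (0.0780).

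Transcripts of proteins that work with Hsp90 were mostly lower in fasted livers. Of 14 tested cochaperones 10 fell, 2 rose and 2 did not pass, with a median log2 fold change of -0.51, against 30.2% lower, 29.2% higher and 0.00 over all tested genes. With 1 library left out, 7 to 10 fell and the median ranged from -0.58 to -0.48. With library totals 11 fell. Chordc1, an Hsp90 cochaperone, fell to 8.87 ± 1.21 CPM in fasted livers, against 89.0 ± 7.73 CPM in refed livers (SD, n = 3 each; 10.04-fold lower, SE 0.14 on the log2 scale, edgeR adjusted p = 3.68e-06). Fkbp4 (FKBP52), the immunophilin that joins Hsp90 to steroid receptors, fell to 41.8 ± 6.63 CPM in fasted livers, against 311 ± 33.4 CPM in refed livers (SD, n = 3 each; 7.45-fold lower, SE 0.17 on the log2 scale, edgeR adjusted p = 8.57e-06). Its relative Fkbp5 (FKBP51), a glucocorticoid-induced immunophilin, rose by 0.89 (SE 0.17, edgeR adjusted p = 0.00232). Unc45a, a chaperone for myosin, rose by 1.18 (SE 0.15, edgeR adjusted p = 0.000323). Among the companion lists described here, a 3-unit heat shock element match was held by Chordc1, which fell, and by the J-domain gene Dnajb6, which rose. The log2 fold change of Dnajb6 was 0.44 (edgeR adjusted p = 0.00617). At least 2 units were held by 3 of 12 Hsp90 cochaperones, 2 of 7 Hsp70 cochaperones and 4 of 11 J-domain genes with a window. They were also held by 3 of 7 other small heat shock, 3 of 8 CCT, 1 of 11 mitochondrial and 2 of 12 immediate early genes. The remaining lists had 0 holders, and of all genes with a window 17.0% held such a match. The holders included Fkbp4 and Dnaja1, which fell, and Hspb8 and Cct2, which rose. The window of Chordc1 held a heat shock element match of 23 bases across its transcription start, GAACGTTCGGGAAAATTCCTGAA at chr9:18292263-18292285, and it was the only 1 of 12 cochaperones with a window to hold 3 units.

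Of 9 tested cochaperones of Hsp70, 3 rose, 3 fell and 3 did not pass (median log2 fold change -0.17), shares near the 29.2% higher and 30.2% lower of all tested genes. With library totals 2 rose and 5 fell (median -0.38). Stip1 (Hop), the adaptor that passes clients between Hsp70 and Hsp90, fell to 33.6 ± 10.8 CPM in fasted livers, against 188 ± 11.0 CPM in refed livers (SD, n = 3 each; 5.62-fold lower, SE 0.22 on the log2 scale, edgeR adjusted p = 5.87e-05). Bag5, a nucleotide exchange factor of the BAG family, rose to 32.1 ± 1.49 CPM in fasted livers, against 13.2 ± 1.08 CPM in refed livers (SD, n = 3 each; 2.43-fold higher, SE 0.11 on the log2 scale, edgeR adjusted p = 4.79e-05).

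The other Hsp70 family genes held 2 that fell, 1 that rose and 3 that did not pass among 6 tested (median log2 fold change -0.54), against 30.2% lower and 29.2% higher over all tested genes. With library totals 4 fell and 0 rose (median -0.75). Hspa4l, a relative of Hsph1, fell to 22.8 ± 7.44 CPM in fasted livers, against 75.2 ± 3.96 CPM in refed livers (SD, n = 3 each; edgeR adjusted p = 0.000339). Hspa12b, known from endothelial cells, fell by 2.70 (SE 0.41, edgeR adjusted p = 0.000772) at under 1 CPM. It reached the filter only through its refed libraries and so had to differ, and without it 1 of 5 fell (median -0.33). Of 7 sinusoidal endothelial markers, 3 rose, 0 fell and 4 did not pass, where 29.2% of all tested genes were higher. Clec4g, among those that did not pass, was at -0.79. The summed level of the 7 was 89.5 to 142 CPM in fasted and 65.0 to 113 CPM in refed livers. Whether these markers bear on Hspa12b was not tested. Hspa14, a ribosome-bound Hsp70 relative, rose by 0.72 (SE 0.20, edgeR adjusted p = 0.0155), and its call was lost without refed replicate 3 (edgeR adjusted p = 0.0623) and with library totals (edgeR adjusted p = 0.0514). The cytosolic J-domain genes held 5 that rose, 2 that fell and 6 that did not pass among 13 (median 0.22), against 29.2% higher and 30.2% lower over all tested genes. With library totals 3 rose and 3 fell (median 0.0044), and 4 fell without fasted replicate 3. The 2 that fell were Dnaja1, an Hsp40 that works with Hspa8, at 77.9 ± 17.5 CPM in fasted livers against 305 ± 30.2 CPM in refed livers, and Dnajb2, at 17.3 ± 1.40 CPM in fasted livers against 31.7 ± 2.39 CPM in refed livers (SD, n = 3 each; edgeR adjusted p = 7.52e-05 for Dnaja1 and 0.000352 for Dnajb2).

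Small heat shock genes other than Hspb1 held 2 that rose, 1 that fell and 2 that did not pass among 5 tested. Over all tested genes 29.2% were higher and 30.2% lower. Hspb8, a small heat shock protein that works with Bag3 in selective autophagy, rose to 562 ± 8.78 CPM in fasted livers, against 185 ± 13.0 CPM in refed livers (SD, n = 3 each; 3.04-fold higher, SE 0.13 on the log2 scale, edgeR adjusted p = 3.34e-05). The libraries of each group were close together, fasted replicate 3 included. Hspb7 rose by 2.37 (SE 0.57, edgeR adjusted p = 0.00711) at under 1 CPM, but it reached the filter only through its fasted libraries and so had to differ. Cryab fell by 0.77 (SE 0.22, edgeR adjusted p = 0.0156), a call lost without refed replicate 2 (edgeR adjusted p = 0.0661). Without Hspb7, 1 of 4 rose and the median was -0.13, against 0.19 over the 5 and -0.02 over the 5 with library totals, where 2 fell.

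Few genes of the cytosolic chaperonin and of its partner prefoldin passed, where 59.4% of all tested genes did. Of 9 tested subunits of CCT, the cytosolic chaperonin that folds actin and tubulin, only Cct2 passed, with a log2 fold change of 0.60 (SE 0.12, edgeR adjusted p = 0.00289). The median of the 9 was 0.09 (-0.13 with library totals), and 3 rose without fasted replicate 3. Of 5 tested prefoldin subunits, which pass clients to CCT, only Pfdn2 rose, by 0.48 (SE 0.13, edgeR adjusted p = 0.0118), a call lost when libraries were scaled by totals (edgeR adjusted p = 0.131), and 2 rose without fasted replicate 3.

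Mitochondrial chaperones and proteases other than the chaperonin held 6 that rose, 4 that fell and 6 that did not pass among 16 tested, near the 59.4% called of all tested genes (median 0.09, from -0.01 to 0.23 with 1 library left out). Only 3 rose without refed replicate 2, without refed replicate 3 or with library totals, which gave a median of -0.13. Grpel1, the exchange factor of mitochondrial Hsp70, rose to 229 ± 21.4 CPM in fasted livers, against 111 ± 4.42 CPM in refed livers (SD, n = 3 each; 2.06-fold higher, SE 0.12 on the log2 scale, edgeR adjusted p = 0.000199). Afg3l2, a subunit of an inner membrane protease, rose by 0.90 (SE 0.12, edgeR adjusted p = 0.000322). Clpb, a disaggregase, fell by 0.78 (SE 0.11, edgeR adjusted p = 0.000517), and Lonp1, the protease of the matrix, fell by 0.56 (SE 0.10, edgeR adjusted p = 0.00195). Hspa9, the mitochondrial Hsp70, was at 1008 ± 174 CPM in fasted livers and 693 ± 31.6 CPM in refed livers (SD, n = 3 each; 1.45-fold higher, SE 0.17 on the log2 scale, edgeR adjusted p = 0.0215), and was named after its values were seen.

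**Figure D4:**
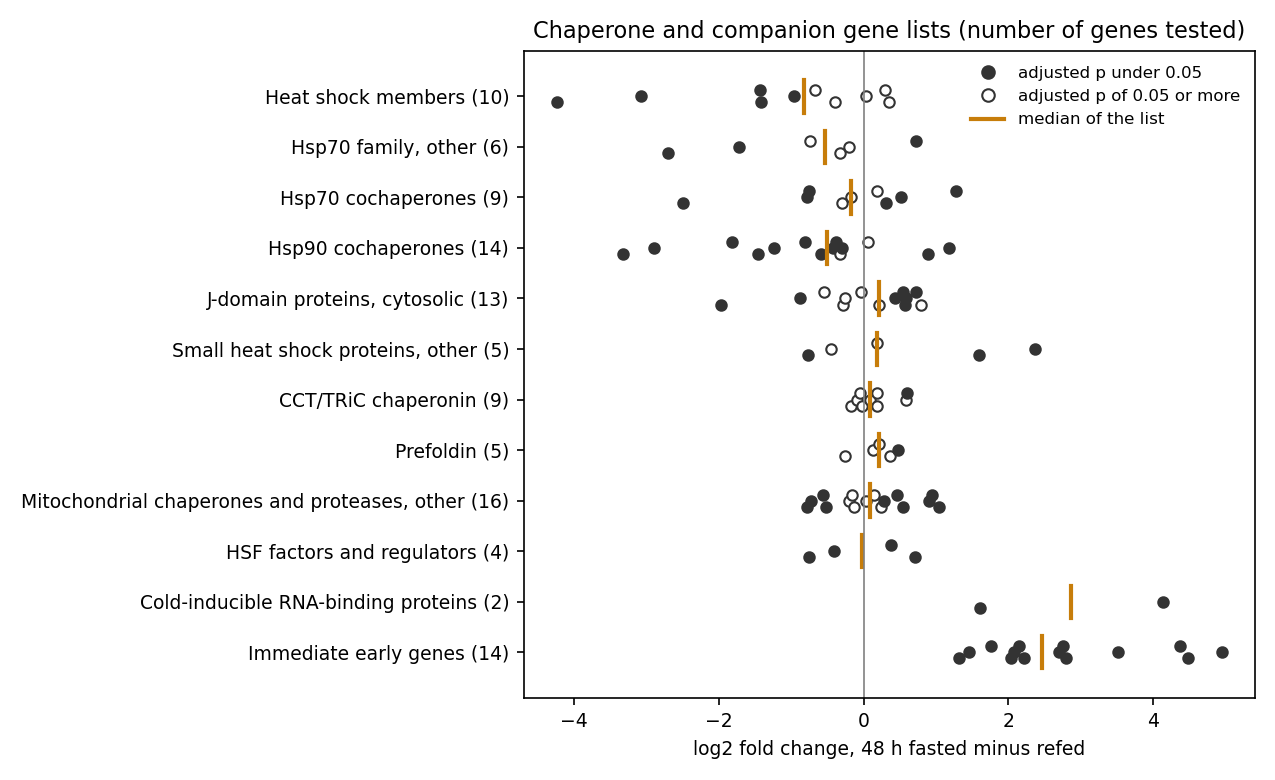
Log2 fold change, 48 h fasted minus refed, of each tested gene in the 10 heat shock genes and in 11 companion lists. Filled points passed an adjusted p of 0.05 in edgeR, open points did not, and orange lines are list medians. The heat shock genes and the Hsp90 cochaperones spread furthest to the left, and the cold-inducible and immediate early genes lie wholly to the right.

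The heat shock factors and their regulators went both ways. Of 4 tested genes of the list of factors and regulators, 2 rose and 2 fell. Of all tested genes 29.2% were higher and 30.2% lower. Hsf2 fell by 0.75 (SE 0.16, edgeR adjusted p = 0.00344) and Hsbp1, which binds and restrains HSF1, fell by 0.41 (SE 0.10, edgeR adjusted p = 0.00952). Hsf1 was at 16.6 ± 1.31 CPM in fasted livers and 12.8 ± 0.653 CPM in refed livers (SD, n = 3 each; 1.30-fold higher, SE 0.12 on the log2 scale, edgeR adjusted p = 0.0223). The other that rose was Hsf4, by 0.71 (SE 0.18, edgeR adjusted p = 0.0105). Hsf1 and Hsf4 were named after their values were seen, and 0 of the 4 rose when libraries were scaled by totals, and 1 without refed replicate 2 or without refed replicate 3.

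The cold-inducible and the immediate early genes tested were higher in fasted livers, where Hspa1b, Hsph1, Dnajb1 and Hsp90aa1 were lower. Cirbp and Rbm3, RNA-binding proteins known to rise when cells cool, were the whole of a list of 2 and both rose. Cirbp was at 87.1, 74.2 and 95.4 CPM in fasted livers, against 4.73, 4.92 and 4.97 CPM in refed livers (log2 fold change 4.13, SE 0.14, n = 3 each; edgeR adjusted p = 2.39e-06). Rbm3 was at 68.1, 50.9 and 65.6 CPM in fasted livers, against 18.0, 21.0 and 21.7 CPM in refed livers (log2 fold change 1.61, SE 0.14, n = 3 each; edgeR adjusted p = 5.48e-05). For both, all fasted libraries were far above all refed ones, and fasted replicate 3 was not the lowest. Immediate early genes, which stimuli and tissue handling are known to induce, rose in 14 of 14 tested (median 2.46). Of all tested genes 29.2% were higher. Atf3 rose by 4.95 (SE 0.21, edgeR adjusted p = 3.68e-06) and Klf6 by 2.76 (SE 0.20, edgeR adjusted p = 2.01e-05). Whether the changes of these genes bear on those of the heat shock genes was not tested.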

How the data were processed

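RNA sequencing of 3 fasted (48 h) and 3 refed mouse livers was used. For each gene the authors deposited, per the file headers, a raw count, a normalized signal, that signal per kb, and their own log2 fold change and p-value. Counts divided by the deposited signal gave 1 constant per library. Tools listed in the submitters' processing notes, without roles, are HTSeq 0.5.4p3, TopHat2 2.0.10, DESeq2 1.0.19 and Bowtie2 2.1.0, with the build mm9. No source used here gives the annotation, the use of strand, or how reads of near-identical copies were counted.

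Counts were tested with edgeR 4.0.16 in R 4.3.3: filterByExpr with a minimum count of 10 (13248 genes kept, 10383 removed), TMM scaling, robust quasi-likelihood fits with the group as only term, and Benjamini-Hochberg adjustment. The SE is the log2 fold change over the square root of F. The test was checked on simulated data, drawn with the same spread setting for every gene and without a library that stands apart. That check does not cover the position of fasted replicate 3. Shares were compared by exact permutation (scipy 1.17.1). Stretches of 50 bases of the longest coding transcript of each gene were sought in GENCODE M21 transcripts. Alternatives were DESeq2 1.42.0, limma-voom (limma 3.58.1), glmTreat, other scalings and filters, a replicate block and each library left out. A fit with Hspa1a and Hspa1b summed was added after the values were seen.

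The genes, lists and tests were chosen with earlier results of these data known. Named list genes are the 2 called members with the lowest p and up to 2 called members against the majority of the list; others are said to be named after their values were seen. For Hspa8 and Hspd1 the 5 genes with the nearest profile were sought, and 1 of those for Hspa8 is not reported here. The list members Cryaa, Hspb3, Pfdn6, Tf, Amy2a5, Pnlip and Prss1 were not analysed here.

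Results for the other marker lists were as follows, where 29.2% of all tested genes were higher and 30.2% lower. Of 8 Kupffer markers 1 fell and 0 rose, of 7 stellate markers 1 rose and 2 fell, and of 4 cholangiocyte markers 2 rose. Of 5 erythroid markers 1 fell, and of 2 pancreatic markers 1 fell. Of 9 hepatocyte markers 4 rose and 2 fell. Of lymphocyte and neutrophil markers 1 each was tested (Cd79b and S100a9, each at the filter's cutoff in 3 fasted libraries and 1 refed library) and called higher. Without fasted replicate 3 Cd79b was not called (adjusted p = 0.0583). Of adipocyte markers 0 were tested.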

Additional observations from a re-analysis of the deposited data

How the results depend on the processing

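Hspa1b, Hsph1, Dnajb1 and Hsp90aa1 kept their direction and passed in all 16 alternatives run. These include the added fit in which Hspa1b was counted together with Hspa1a. Hsp90ab1 passed only with library totals (-0.61), Hspa8 with library totals (-0.90) and DESeq2 (-0.66), and Hspa1a did not pass with DESeq2 or glmTreat (-1.42 and -1.41). Hspb1 changed sign with upper quartile scaling (-0.0019), library totals (-0.19), limma-voom (-0.031) and the replicate block (-0.033). With 1 library left out, values ranged from -0.92 to -0.40 for Hspa8, -1.61 to -1.10 for Hspa1a, -0.32 to 0.37 for Hspb1, 0.16 to 0.47 for Hspd1 and 0.24 to 0.50 for Hspe1. The count of the 10 genes called lower ranged from 4 to 6 and higher from 0 to 2, the called CCT genes from 1 to 3 and prefoldin genes from 1 to 2, and the share of Hspe1 from -0.038 to 1.31 points. The cause of these changes was not tested. With glmTreat, which asks for a change beyond 0.5, calls fell to 4929 of all genes (2338 higher, 2591 lower), 3 of the Hsp70 and 7 of the Hsp90 cochaperones, 3 J-domain, 4 mitochondrial and 0 CCT, prefoldin or heat shock factor genes. Library totals gave 2 called CCT and 2 heat shock factor genes, and a mean of at least 5 CPM left 1 called small heat shock gene among 2 tested. With the replicate number as a block, 7340 genes were called and 2 prefoldin genes. Deviations of same-numbered libraries correlated by -0.02, -0.06 and -0.08, so the numbers were not taken as pairs. Depth limits Hspa1a most, at 2 to 14 reads.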
